A study of Danio rerio with 15 samples.

Results

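Neutrophils of tet2/tet3 double mutant zebrafish embryos at 2 days post fertilization (dpf) were compared with those of wildtype embryos at 1.5 dpf. The comparison takes 6 of the 15 libraries of the study, 3 in each group, and all 15937 genes of the deposited table, of which 15933 passed a filter on low values. Neutrophils were sorted by flow cytometry on green fluorescent protein driven by mpx, the gene of myeloperoxidase (reporter mpx:GFP). The double mutants carry mutations in both tet2 and tet3, written tet2/3DM in the labels, which do not give the alleles. The wildtype libraries at 1.5 dpf are named for 35 hours post fertilization. The other 9 libraries are wildtype, tet2-/- and tet3-/- neutrophils at 2 dpf. Genotype and stage both differ between the groups compared and cannot be told apart. The wildtype level at 2 dpf is therefore given beside many genes, as a description.

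Tet2 and Tet3 oxidise methylated cytosine in DNA, a step in the removal of DNA methylation, and in several organisms Tet2 loss alters blood cell formation. In the zebrafish embryo an early wave of haematopoiesis makes red cells and macrophages, and neutrophils follow. During this period endothelium, blood progenitors and red cell precursors lie close together and share many transcription factors. A neutrophil then fills its granules with enzymes such as myeloperoxidase and lysozyme and leaves the cell cycle.

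Values are normalised read counts, that is, counts scaled by the authors with 1 size factor per library. Recovered totals were 12.19 to 15.05 M reads in wildtype at 1.5 dpf and 27.19 to 31.06 M in double mutants. A called gene has an adjusted p under 0.05 by limma on log2(value + 1), fitted to all 15 libraries, which understates changes of low genes. Intervals of 95% are for a single gene and are not adjusted. Means are given ± SD with n = 3 libraries. Whether the 3 libraries of each group stem from different clutches or sorting runs is not stated in the labels, and p-values reflect library-to-library spread alone, possibly technical. Within groups the libraries correlated at 0.881 to 0.944 in double mutants, lowest between replicates 1 and 2, and at 0.931 to 0.947 in wildtype at 1.5 dpf. Double mutant replicate 2 correlated with wildtype replicates 1 and 2 at 0.811 and 0.808 over all genes tested, against 0.876 to 0.884 for double mutant replicates 1 and 3 with the same libraries. Over all 9 pairs the double mutant libraries correlated with wildtype at 1.5 dpf at 0.808 to 0.904 (median 0.878) and with wildtype at 2 dpf at 0.862 to 0.89 (median 0.881), as a description of libraries that share genes and scaling.

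The sorted cells carried the transcripts of the sort. mpx was 45099.7, 33304 and 49243 in double mutants, against 50671, 89852 and 32686 in the younger wildtype. lyz, the lysozyme gene, was 71695, 77495 and 79701 in double mutants, against 154271, 198732 and 68382 in the younger wildtype. The groups overlapped for both genes, and neither was called (log2 difference -0.34 with a 95% interval of -1.09 to 0.41 for mpx, and -0.75 with -1.48 to -0.01 for lyz, adjusted p = 0.58 and 0.16 by limma). The sign of the mpx difference turned with quantile normalization (0.006) and without wildtype replicate 2 (0.045).

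The targeted genes were not called. tet2 mRNA was 592, 2529 and 1388 in double mutants, against 819, 920.4 and 1407 in the younger wildtype, and the double mutant libraries ran from below to above the wildtype range (log2 difference 0.32, adjusted p = 0.61 by limma). Its difference was -0.17 without double mutant replicate 2. tet3 mRNA was 1772, 3062 and 2138 in double mutants, against 1093, 1393 and 2169 in the younger wildtype (log2 difference 0.60, adjusted p = 0.15). tet1, the third family member, was 235, 749 and 389.8 in double mutants, against 261, 208 and 280.2 in the younger wildtype (adjusted p = 0.17 by limma). Counts over a whole transcript do not tell a mutant allele from an intact one.

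socs3b, which encodes a feedback inhibitor of cytokine receptors that signal through JAK kinases and STAT factors, was 5114, 1855 and 2456 in double mutants, against 2546, 1492 and 2115 in the younger wildtype. The groups overlapped, and the gene was not called (log2 difference 0.51, 95% interval -0.21 to 1.23, adjusted p = 0.34 by limma). In wildtype at 2 dpf it was 561 ± 109. Against that group the double mutants were higher, by 2.36 on the log2 scale, so the level in double mutants differed from the wildtype of the same stage and not detectably from the younger wildtype.

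Across the transcriptome 2258 genes differed, 1240 higher and 1018 lower in double mutants, which is 14.2% of the genes tested, 7.78% higher and 6.39% lower. Of these, 1694 differed at least 2-fold and 338 at least 8-fold. The groups overlapped for only 88 of the called genes, so a lack of overlap in a called gene adds little. Over all genes tested every double mutant library was above every wildtype library at 1.5 dpf for 15.8%, and below for 14.1%. When the test asked for a change beyond 2-fold, 179 genes passed, 74 higher and 105 lower. The median log2 difference over all genes tested was 0.03. Among the 1240 higher genes the mean of wildtype at 2 dpf lay between the groups for 786, above both for 376 and below both for 78. Among the 1018 lower genes it lay between for 651, below both for 232 and above both for 135. The same fit called 1383 genes (8.68%) between double mutants and wildtype at 2 dpf and 3317 (20.8%) between the wildtype stages, which share libraries with this comparison. 885 of the 2258 genes (39.2%) stayed called in the same direction when each of the 6 libraries was left out in turn. The count was 1282 without double mutant replicate 2, 1144 without wildtype replicate 1 and 1460 without wildtype replicate 2. Without double mutant replicates 1, 2 and 3 the higher counts over all genes were 1413, 625 and 764, and the lower counts 1089, 657 and 769. Without wildtype replicates 1, 2 and 3 they were 604, 805 and 1451 higher, and 540, 655 and 1071 lower. Counts of list members in fits without 1 library stand against these totals of 15933 genes tested.

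**Figure D1:**
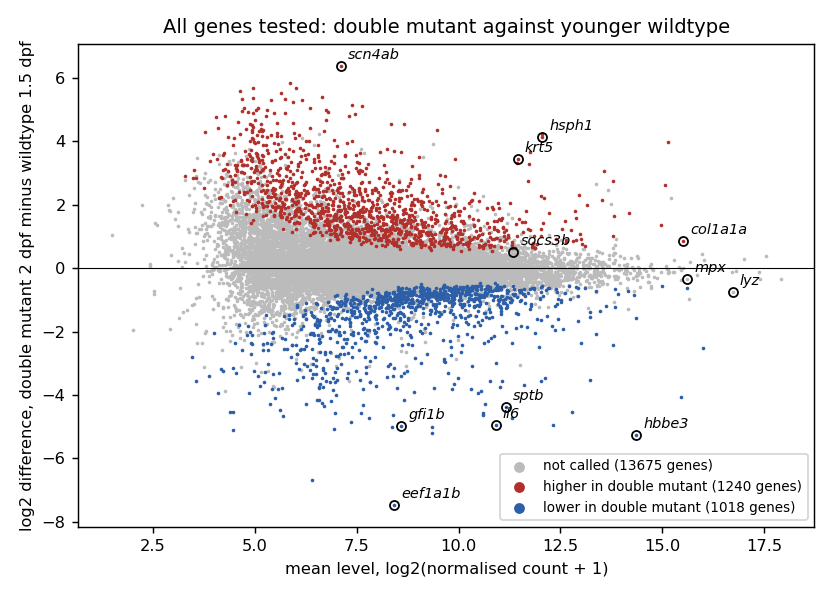
Log2 difference of each gene tested (vertical axis) against its mean level over both groups on the log2 scale (horizontal axis). Red points are the 1240 genes called higher in double mutants and blue points the 1018 called lower. Circles mark hsph1 and genes named in the text, with mpx, lyz and socs3b among the uncalled. hsph1 was called higher (log2 difference 4.12), but not without double mutant replicate 3 or any 1 wildtype library.

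Red blood cell genes were lower almost throughout. All 26 erythroid markers tested had a negative difference, 23 were called lower and none higher, against 6.39% of all genes called lower, with a median log2 difference of -3.51. Globin, haem synthesis, membrane and transcription factor genes were all among them. In the leave-one-out fits 22 to 25 members were called lower. The marker list summed to 0.0538 to 0.19% of normalised counts in double mutants against 1.19 to 1.33% in wildtype at 1.5 dpf, so the groups did not overlap. In wildtype at 2 dpf it summed to 0.0463 to 0.064%. In bulk samples fewer cells of a type and less RNA per cell cannot be told apart, and the part of red cell RNA in other results was not tested.

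hbbe3, an embryonic beta globin gene, was 1326, 495 and 1729.6 in double mutants, against 46799, 40461 and 34392 in the younger wildtype (log2 difference -5.27, SE 0.93, adjusted p = 0.0035 by limma). Every wildtype library at 1.5 dpf stood far above every double mutant library. hbae3, an embryonic alpha globin gene, was 5149, 2362 and 10449.8 in double mutants, against 85125, 85435 and 81820.4 in the younger wildtype (log2 difference -4.06). Embryonic globin genes resemble each other, some of them closely, and reads may be split between close copies. slc4a1a, the anion exchanger of the red cell membrane, was 629, 275 and 1103 in double mutants, against 12557, 13750.3 and 13702 in the younger wildtype, and was picked out after its values were seen. sptb, the erythroid spectrin beta chain, was 134, 162 and 393 in double mutants, against 3462, 4814 and 4681 in the younger wildtype (log2 difference -4.38, adjusted p = 2.1e-06 by limma). For slc4a1a and sptb no double mutant library came near the wildtype libraries. tfr1a, which encodes the transferrin receptor that brings iron into red cell precursors, was 61.7, 107 and 272 in double mutants, against 2282, 2927 and 3601 in the younger wildtype, with a log2 difference of -4.56. hmbsb, an enzyme gene of haem synthesis, was 476, 299 and 571 in double mutants, against 3457, 3544 and 3341 in the younger wildtype (log2 difference -2.99), and blvrb, a biliverdin reductase gene, had a difference of -2.63.

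Several regulators of the red cell and megakaryocyte lines were lower with them. gata1a, the master regulator of red cell fate, was 34.8, 22.1 and 92.1 in double mutants, against 702, 773 and 813 in the younger wildtype (log2 difference -4.16, adjusted p = 6.1e-05 by limma). gfi1b, a repressor of the red cell and platelet lines, was 19.1, 16.4 and 36.5 in double mutants, against 843, 655 and 741 in the younger wildtype (log2 difference -4.98, SE 0.45, adjusted p = 7.3e-06 by limma). All 3 double mutant libraries were also below wildtype at 2 dpf, where gfi1b was 90.5 ± 24.8. lmo2, a partner of Gata factors in blood and vessel progenitors, was 179, 122 and 165 in double mutants, against 693, 473 and 640.0 in the younger wildtype. Of 15 blood progenitor genes 5 were lower, 1 higher and 9 not called (40% called, against 14.2% of all genes). Of the lower members, gata1a is also counted among the erythroid markers and fli1a among the endothelial markers below. The list as a whole was split, with 7 positive and 8 negative differences and a median of -0.33. The higher member was gfi1aa, a repressor gene picked out after its values were seen. It averaged 72 ± 19 against 13.3 ± 7.4 and was not called without double mutant replicates 2 or 3 or wildtype replicate 3. myb, needed for definitive progenitors, was among the lower (log2 difference -1.16, 687 ± 44.1 against 1548 ± 282). fli1a and drl, the latter picked out after its values were seen, differed by -0.98 and -3.78.

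**Figure D2:**
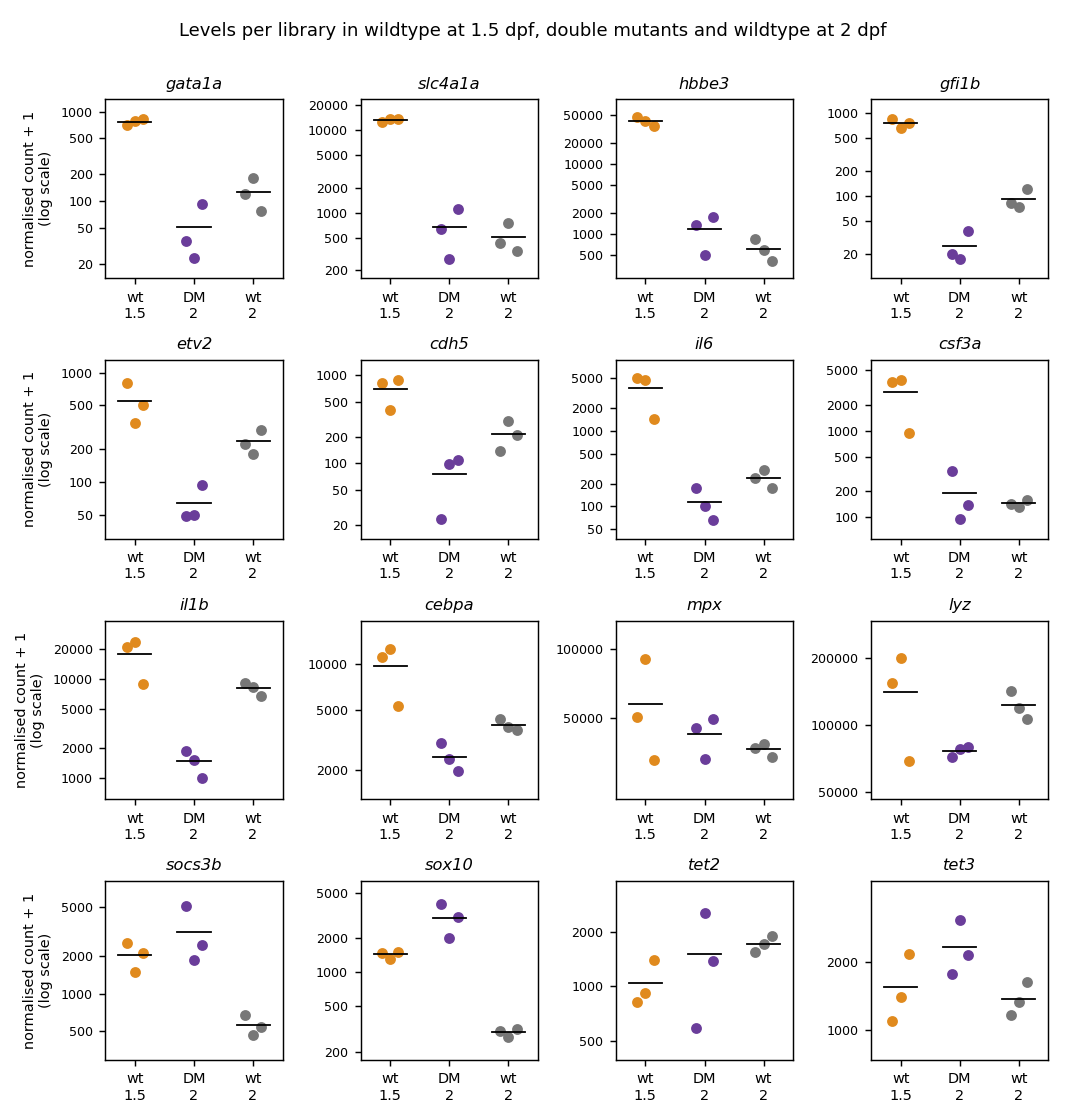
Normalised read counts + 1 on a log axis for 16 genes, with 1 point per library and a line at the mean of the 3 libraries, in wildtype at 1.5 dpf, double mutants at 2 dpf and wildtype at 2 dpf. The double mutants sit below wildtype at 1.5 dpf for gata1a, slc4a1a, hbbe3, gfi1b, etv2, cdh5, il6, csf3a, il1b and cebpa, and overlap it for mpx, lyz, socs3b, tet2 and tet3.

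Most endothelial genes were lower too. Of 31 markers tested 24 were lower, against 6.39% of all genes, 1 was higher and 6 were not called, with a median log2 difference of -1.98, and 20 to 24 were called lower in the leave-one-out fits. The list summed to 0.0464 to 0.0634% of normalised counts in double mutants against 0.09 to 0.145% in wildtype at 1.5 dpf. In wildtype at 2 dpf it summed to 0.09245 to 0.09784%, above every double mutant library. etv2, which starts the vessel lineage, was 48, 49.3 and 92.1 in double mutants, against 806, 342 and 507 in the younger wildtype (log2 difference -3.09, adjusted p = 2.5e-05 by limma). sox18, a transcription factor of vessel identity, was 55.9, 57.8 and 53 in double mutants, against 842, 432 and 573 in the younger wildtype (log2 difference -3.39, SE 0.31). The groups did not overlap for either gene. erg, another vascular transcription factor gene, was 50.5, 75.9 and 85.8 in double mutants, against 369.9, 353 and 309.6 in the younger wildtype. stab2, a scavenger receptor of veins, was 184, 419.9 and 226 in double mutants, against 3036, 1496 and 2311 in the younger wildtype (log2 difference -3.07). cdh5, the cadherin of vessel junctions, averaged 75.5 ± 46.1 and 697 ± 259 in the same order, and was 216 ± 82.7 in wildtype at 2 dpf. This gene and robo4 were picked out after their values were seen. robo4, a guidance receptor of vessels, was the member that was higher, at 1179, 867 and 843 in double mutants, against 292, 234 and 666 in the younger wildtype (log2 difference 1.41).

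Heart genes followed the same direction. Of 13 tested 7 were lower, against 6.39% of all genes, and none higher (median -2.37). For double mutants minus wildtype at 2 dpf the median was -3.04. myl7, an atrial and ventricular myosin light chain gene of the embryonic heart, was 7.84, 0.567 and 2.12 in double mutants, against 166, 32.5 and 81.4 in the younger wildtype (log2 difference -4.46, adjusted p = 0.00075 by limma). vmhc, the ventricular myosin heavy chain gene, was 23.5, 3.97 and 47.1 in double mutants, against 239, 148 and 278 in the younger wildtype. tnnt2a, cardiac troponin T, was 8.33, 21.5 and 7.41 in double mutants, against 247, 164 and 115 in the younger wildtype (log2 difference -3.79). These levels were low in every library, and the list summed to at most 0.0117% of normalised counts in these 6 libraries. Wildtype at 2 dpf averaged 66.7 ± 37.3 for myl7, 198 ± 46.4 for vmhc and 107 ± 49.1 for tnnt2a.

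Of 18 myeloid transcription factors 5 were lower and 1 higher (33.3% called, against 14.2% of all genes). Of these, gfi1b and myb (lower) and gfi1aa (higher) were already given above with red cell and progenitor genes. cebpa, which drives granulocyte fate, was 3008, 2345 and 1967 in double mutants, against 11071, 12593 and 5264 in the younger wildtype (log2 difference -1.91, SE 0.35, adjusted p = 0.0027 by limma). mafba, a regulator of monocytes and macrophages, was 882, 1158 and 929 in double mutants, against 2696, 2263 and 2340.4 in the younger wildtype (log2 difference -1.30). Wildtype replicate 3 was the lowest of its group for cebpa and still above all double mutant libraries. spi1b, which encodes the myeloid factor Pu.1, averaged 3777 ± 495 and 7904 ± 2928 and was called with all libraries, but not without double mutant replicates 1 or 2 or wildtype replicates 1 or 2. It was picked out after its values were seen, and its difference in those 4 fits ran from -0.96 to -0.74.

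Granule and antimicrobial genes were lower in 3 of 15 (20%, against 6.39% of all genes) and higher in none. srgn, the proteoglycan that packs granule proteins, was 10587, 7396 and 11745 in double mutants, against 30932, 47687 and 16732 in the younger wildtype (log2 difference -1.58, adjusted p = 0.0077 by limma). abcb9, a lysosomal transporter gene, and nccrp1, a receptor gene of cytotoxic cells, differed by -1.65 and -1.50 on the log2 scale, from 6409 to 1900.3 and from 6985 to 2282. None of 7 genes of the NADPH oxidase, which makes superoxide in phagocytes, was called, against 14.2% of all genes. All 7 had a negative difference (median -0.53). Without wildtype replicate 3, 6 of the granule genes and 2 of the oxidase genes were called lower, and 1071 of 15933 genes over all. In each other leave-one-out fit 3 or 4 granule genes and none of the oxidase genes were called lower.

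Of 16 migration and chemokine receptor genes 5 were lower (31.2%, against 6.39% of all genes). wasb, the actin regulator of the Wiskott-Aldrich family, was 649, 596 and 618 in double mutants, against 2192, 3413 and 1349 in the younger wildtype (log2 difference -1.80, adjusted p = 0.00089 by limma) and stayed called in each leave-one-out fit. The other 4 were csf3r, the receptor of granulocyte colony-stimulating factor (-0.69), cxcr4b, the receptor that retains neutrophils in blood-forming tissue (-1.13), ltb4r, a leukotriene receptor gene picked out after its values were seen (-0.88), and the chemokine gene cxcl8a (-2.09), listed as PF4V1 in the deposited table. Without double mutant replicates 2 or 3 or wildtype replicates 1 or 2 the list had 1 lower member, wasb.

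Inflammatory cytokine genes were among the larger differences. il6, a cytokine gene that signals through JAK and STAT proteins, was 176, 100.3 and 64.1 in double mutants, against 5002, 4726 and 1446 in the younger wildtype (log2 difference -4.95, SE 0.76, adjusted p = 0.0013 by limma). csf3a, a granulocyte colony-stimulating factor gene, was 337, 93.5 and 135 in double mutants, against 3624, 3909.5 and 945 in the younger wildtype (log2 difference -3.86, adjusted p = 0.002 by limma). il1b, the central inflammatory cytokine gene, was 1863, 1515 and 992 in double mutants, against 20961, 23660.1 and 8835 in the younger wildtype (log2 difference -3.54). For all of these wildtype replicate 3 was lower than replicates 1 and 2 and above every double mutant library. il1b in wildtype at 2 dpf was 8019.9 ± 1190.4, above every double mutant library, whereas il6 was 237 ± 61.5 and csf3a 142 ± 11.8 there. tnfa and il11b, picked out after their values were seen, averaged 55.4 ± 19.5 and 112 ± 66.6 in double mutants against 755 ± 541 and 958 ± 615.

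As lists, 6 of 40 inflammatory genes were lower and 3 higher (22.5% called, against 14.2% of all genes). Of 43 JAK-STAT and SOCS genes 6 were lower and 2 higher (18.6% called). il6 is counted in both lists. Of all genes 6.39% were lower and 7.78% higher, so the higher counts are no result about the lists. The inflammatory lower count was 3 without double mutant replicate 2 or wildtype replicates 1 or 2, 4 without double mutant replicate 3 and 9 without wildtype replicate 3. caspb, an inflammatory caspase gene, was higher at 37.7, 49.9 and 63.6 in double mutants, against 0, 2.6 and 0 in the younger wildtype (log2 difference 5.04). noxo1a, an organiser of a non-phagocyte oxidase, was higher at 133, 133 and 285 in double mutants, against 5.17, 49.5 and 20.8 in the younger wildtype. The third higher member, ptgs2b, a prostaglandin synthase gene picked out after its values were seen, differed by 1.21 and was not called without double mutant replicates 1 or 2 or wildtype replicates 1 or 3. The higher count was 2 without double mutant replicate 2 or wildtype replicate 1. Among the JAK-STAT members jak3, the kinase of common gamma chain receptors, was 108, 113 and 124 in double mutants, against 846, 1129 and 607 in the younger wildtype (log2 difference -2.85, adjusted p = 1.3e-05 by limma). Its library values did not overlap, and wildtype at 2 dpf had 988 ± 119, so both wildtype stages were above all double mutant libraries. socs5b, another suppressor of cytokine signalling, was higher at 536, 878 and 591 in double mutants, against 172, 189 and 264 in the younger wildtype (log2 difference 1.67, adjusted p = 0.0012 by limma). The other higher member, pias1a, also picked out after its values were seen, encodes an inhibitor of STAT proteins and differed by 1.01. It stayed called only without wildtype replicate 3 among the leave-one-out fits, and the higher count was 1 without double mutant replicates 2 or 3 or wildtype replicates 1 or 2. The lower JAK-STAT count was 4 without double mutant replicate 3 or wildtype replicates 1 or 2. Of 11 interferon-responsive genes 1 was lower (9.09% called, against 14.2% of all genes), so this count is no result about the list. The lower gene was the antiviral GTPase gene mxc (3.92, 3.4 and 7.41 in double mutants, against 58.2, 46.9 and 75.7 in the younger wildtype).

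Macrophage markers moved in both directions, with 8 higher, 7 lower and 10 not called of 25 (60% called, against 14.2% of all genes, median -0.11). grna, a progranulin gene of lysosomes, was 7696, 5995 and 7772 in double mutants, against 1532, 1735 and 1364 in the younger wildtype (log2 difference 2.21, SE 0.29, adjusted p = 0.00022 by limma), and grn1, a small granulin gene, was 471, 230.1 and 436 in double mutants, against 75, 24.7 and 34.1 in the younger wildtype. Both were higher in all double mutant libraries. mfap4, a macrophage marker in zebrafish, was lower at 1409.6, 1042 and 1100.0 in double mutants, against 7087, 9038 and 4409 in the younger wildtype (log2 difference -2.48), and marco, a scavenger receptor gene of macrophages, was lower at 975, 822 and 833 in double mutants, against 4381, 4562 and 2281 in the younger wildtype. Another gene of the MFAP4 family (ENSDARG00000088745) had the smallest p of all genes tested and was lower, at 412, 304 and 232 in double mutants, against 10642, 12347 and 6597 in the younger wildtype (log2 difference -4.95, SE 0.27, adjusted p = 4.4e-08 by limma). It was 6692 ± 569 in wildtype at 2 dpf. Copies in this family resemble each other closely, which makes these values uncertain. The higher count was 5 without wildtype replicate 2. Of the lower members, spi1b is also counted among the myeloid transcription factors. mrc1a, picked out after its values were seen, is also counted among the endothelial markers. The list summed to 0.369 to 0.544% of normalised counts in double mutants against 0.36 to 0.506% in wildtype at 1.5 dpf, and those ranges overlap.

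Cell cycle genes were lower by small amounts in many members. Of 57 tested 27 were lower, against 6.39% of all genes, none was higher and 55 had a negative difference, with a median of -0.66. plk1, a mitotic kinase gene, was 1795, 1575 and 1697 in double mutants, against 3247, 3247 and 3255 in the younger wildtype (log2 difference -0.95, SE 0.14, adjusted p = 0.00042 by limma). The wildtype libraries differed little among themselves for this gene. kif23, a motor of cell division, was 1047, 1045 and 1061 in double mutants, against 1902, 1978 and 1971 in the younger wildtype (log2 difference -0.89). cdk1, the kinase that starts mitosis, was 1593, 964 and 1164 in double mutants, against 2352, 2670.1 and 2234 in the younger wildtype (log2 difference -0.99), and tyms, which makes thymidylate for DNA synthesis, was 819, 515 and 757 in double mutants, against 1259.6, 1511 and 1355 in the younger wildtype. For 46 of the 57 members all double mutant libraries were below all wildtype libraries, against 14.1% of all genes. The called count was 15, 16 and 18 without double mutant replicate 2, wildtype replicate 1 and wildtype replicate 3, and 6 when only these 6 libraries were fitted. Over all genes the lower counts in those fits were, in that order, 657, 540, 1071 and 504, against 1018 in the main fit. Values in wildtype at 2 dpf were 1779 ± 101 for plk1 and 972 ± 75.1 for kif23. The erythroid list, 0.0538 to 0.19% of normalised counts in double mutants against 1.19 to 1.33%, moved in the same direction, and its part in this result was not tested.

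Extracellular matrix genes were higher. Of 35 tested 19 were higher, against 7.78% of all genes, and 2 lower (median 1.13). The list summed to 1.04 to 1.13% of normalised counts in double mutants against 0.409 to 0.595% in wildtype at 1.5 dpf. col1a2, a chain of type I collagen, was 14139.9, 15073 and 13776 in double mutants, against 2482, 4737 and 3962 in the younger wildtype (log2 difference 1.99, adjusted p = 0.0042 by limma). col11a2, a cartilage collagen gene, was 260.2, 912 and 365 in double mutants, against 113, 39.1 and 67.2 in the younger wildtype, with a log2 difference of 2.71. lum, the proteoglycan lumican, was 499, 880.1 and 869 in double mutants, against 142, 251 and 154 in the younger wildtype (log2 difference 2.03), and postnb, periostin, was 11056, 10911 and 12237 in double mutants, against 3323, 3865 and 4219 in the younger wildtype (log2 difference 1.59). The groups did not overlap for any of these, which are the 4 called members with the smallest p. Wildtype at 2 dpf had 23818 ± 2911 for col1a2 and 2556 ± 482 for col11a2. col1a1a, another type I collagen chain and among the genes with the largest difference in level, was 77925, 54091 and 48074 in double mutants, against 32013, 33379.8 and 32767 in the younger wildtype here and 234879.6 ± 12858 in wildtype at 2 dpf. nid2b and nid2a, basement membrane nidogens, were the members that were lower, and were picked out after their values were seen (log2 difference -3.55 and -0.80). Neither was called without double mutant replicate 2 or wildtype replicate 2, and nid2b alone was not called without double mutant replicate 1 or wildtype replicate 1, nor nid2a without wildtype replicate 3. The higher count was 11 without double mutant replicate 2 or wildtype replicate 2 and 10 without wildtype replicate 1, and 5 with the level of hsp70l as a covariate. Over all genes the higher counts in those fits were, in that order, 625, 805, 604 and 423, against 1240 in the main fit. Of the called matrix genes 38.1% stayed called in each leave-one-out fit, against 39.2% of all called genes. These are genes of connective tissue, and the part of other cells in the sort was not tested.

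**Figure D3:**
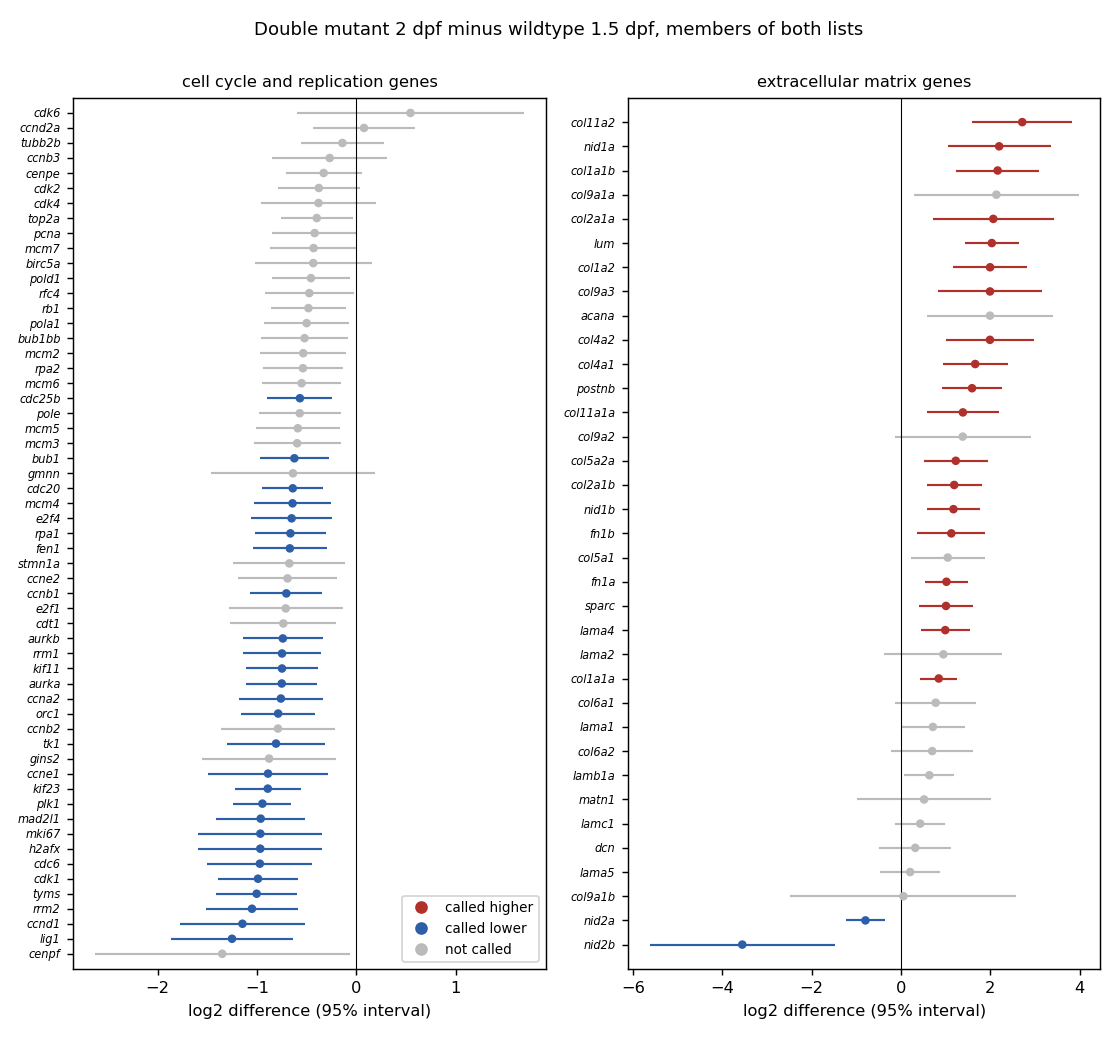
Log2 difference of each member of the cell cycle list (left) and the extracellular matrix list (right), with its unadjusted 95% interval. Red members were called higher, blue members lower and grey members not called. Of the cell cycle members 55 of 57 lie below 0, and of the matrix members 33 of 35 lie above 0.

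Chaperones of the heat shock response were higher in 15 of 28 members, against 7.78% of all genes, with a median of 1.83. The 1 lower member was the factor gene hsf2, picked out after its values were seen. For double mutants minus wildtype at 2 dpf the median of the list was -2.15. hsp90aa1.2, a heat-inducible Hsp90 gene, was 14384, 156173 and 38013 in double mutants, against 3519, 4572 and 1393 in the younger wildtype (log2 difference 3.96, adjusted p = 0.0017 by limma). Double mutant replicate 2 was far above the other double mutants for this gene, and all 3 were above wildtype at 1.5 dpf. hspa4a, a nucleotide exchange factor of Hsp70, was 7280.1, 50436 and 10089 in double mutants, against 2103, 1851 and 1639 in the younger wildtype, with a log2 difference of 3.06. The co-chaperone genes dnaja1 and dnajb1a averaged 2262 ± 1517 and 645 ± 435 in double mutants against 383 ± 98.5 and 119.7 ± 5.61, and replicate 2 was the highest for both. serpinh1b, the collagen chaperone, was 11032, 16969.8 and 6635 in double mutants, against 4075, 3409.6 and 2119.8 in the younger wildtype (log2 difference 1.80). hsp70l was 5505, 156506 and 41711 in double mutants, against 7289.7, 10181 and 4965 in the younger wildtype. The groups overlapped and hsp70l was not called (adjusted p = 0.11 by limma). Wildtype at 2 dpf averaged 257182 ± 13165 for hsp90aa1.2, 52563 ± 3224 for hspa4a and 396822 ± 29324 for hsp70l, above the double mutant means. dnaja1 and dnajb1a averaged 1187 ± 131 and 264 ± 31.2 there, below the double mutant means. hsp70.3 and hsp70.2, near-identical heat-inducible genes, were called with overlapping groups, and were not called without double mutant replicates 2 or 3 or any 1 wildtype library. Together hsp70l and hsp70.3 took 0.0789, 1.89 and 0.603% of normalised counts in double mutants, against 0.0888, 0.107 and 0.057% in wildtype at 1.5 dpf (two-sided exact permutation p = 0.3, where the smallest possible is 0.1). The higher count was 7 without double mutant replicate 2, 8 without wildtype replicates 1 or 3 and 9 without wildtype replicate 2. hsf2 was not called without double mutant replicates 1 or 2 or wildtype replicates 1 or 3.

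Of 39 immediate early genes, which respond within minutes to handling or signals, 3 were lower and 1 higher. With 10.3% called, against 14.2% of all genes, these counts are no result about the list. klf2a and klf2b, flow-responsive factors of vessels, were both lower. klf2a was 78.4, 198 and 165 in double mutants, against 794, 318 and 577 in the younger wildtype. klf2b was 152, 409 and 292 in double mutants, against 895, 1173 and 697 in the younger wildtype. egr3 was lower (log2 difference -1.33) and nr4a1, an orphan nuclear receptor gene, was higher (log2 difference 1.02, not called without double mutant replicates 1 or 3 or wildtype replicate 1, where it ran from 0.76 to 1.05). Of 29 unfolded protein response genes 4 were called, all higher, which is 13.8%, against 7.78% of all genes higher and 14.2% called. The median log2 difference was 0.43, with 22 positive and 7 negative. None of the 4 stayed called in each leave-one-out fit. hspa5, the main chaperone of the endoplasmic reticulum, was 43432, 63878 and 29458 in double mutants, against 21982, 25643 and 8706 in the younger wildtype. It was not called without double mutant replicate 2 or wildtype replicate 3. eif2ak3 and syvn1 averaged 618 and 1250.1 against 265 and 744, and neither was called without wildtype replicate 1. trib3 was not called in any leave-one-out fit. The higher count of the list was 2 without double mutant replicate 2 or wildtype replicate 3 and 1 without wildtype replicate 1.

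**Figure D4:**
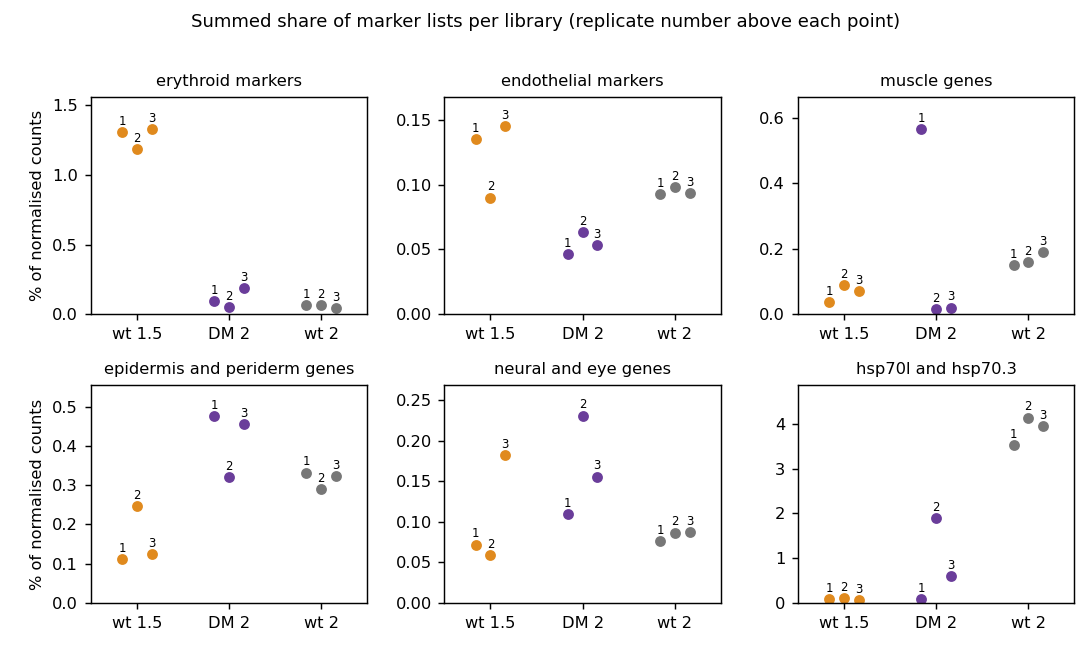
Summed share of 5 marker lists and of hsp70l with hsp70.3, as a percentage of normalised counts, with 1 numbered point per library. Erythroid markers lie at 1.19% or more in every wildtype library at 1.5 dpf and at 0.19% or less in double mutants, double mutant replicate 1 stands alone for muscle genes (0.566%), and replicate 2 for the hsp70 genes (1.89%).

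Of 28 epidermis and periderm genes 10 were higher, against 7.78% of all genes, and none lower (median 1.56), and the list summed to 0.32 to 0.477% of normalised counts in double mutants against 0.111 to 0.247% in wildtype at 1.5 dpf. krt5, a basal keratin gene, was 4847, 4621 and 5453 in double mutants, against 209, 1311 and 342 in the younger wildtype (log2 difference 3.44, adjusted p = 0.006 by limma), and agr2, a gene of mucous cells, was 126, 211 and 133 in double mutants, against 19.4, 44.3 and 10.4 in the younger wildtype. anxa1a, an annexin gene, was 965, 701 and 1227 in double mutants, against 150.0, 469 and 100.4 in the younger wildtype. krt18, a simple epithelial keratin gene, differed by 1.73 on the log2 scale. Wildtype at 2 dpf averaged 4686 ± 207 for krt5, 200 ± 17.5 for agr2, 963 ± 215 for anxa1a and 4674 ± 468 for krt18. For double mutants minus wildtype at 2 dpf the median of the list was 0.09. Between the wildtype stages, 2 dpf minus 1.5 dpf, it was 1.41. The higher count was 5 without double mutant replicates 1 or 3 or wildtype replicate 3 and 6 without wildtype replicate 1.

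Of 30 neural and eye genes 8 were higher, against 7.78% of all genes, and none lower (median 0.94), and 9 had a negative difference. elavl4, a neuronal RNA-binding protein gene, was 584, 2398 and 1001 in double mutants, against 103, 116 and 260.4 in the younger wildtype (log2 difference 2.93), and snap25a, a synaptic vesicle fusion gene, was 200.4, 352 and 241 in double mutants, against 44, 39.1 and 64.4 in the younger wildtype (log2 difference 2.40). stmn1b, a neuronal microtubule regulator, was 887, 2102 and 1253 in double mutants, against 239, 352 and 481 in the younger wildtype. Double mutant replicate 2 was the highest for all of these. The higher count was 5, 4, 3 and 4 without double mutant replicates 2 and 3 and wildtype replicates 1 and 2. The summed share was 0.11 to 0.231% of normalised counts in double mutants against 0.0591 to 0.182% in wildtype at 1.5 dpf, where wildtype replicate 3 overlapped the double mutants.

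Of 35 muscle genes 1 was higher and 2 were lower (8.57% called, against 14.2% of all genes), so these counts are no result about the list. The list summed to 0.566, 0.0163 and 0.0206% in double mutants against 0.037 to 0.0892% in wildtype. Double mutant replicate 1 alone was high. acta1a, a skeletal actin gene, was lower at 978, 196 and 472 in double mutants, against 1615, 2023 and 2488 in the younger wildtype. tnni1b, a troponin I gene, was also lower (log2 difference -3.94) and is counted among the heart genes above as well. tnnt3b, fast troponin T, was higher at 3243, 852 and 318 in double mutants, against 105, 275 and 69.1 in the younger wildtype, with replicate 1 the highest.

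Of 26 pigment cell and neural crest genes tested 3 were higher, 2 lower and 21 not called (median 0.19). With 19.2% called, near the 14.2% of all genes, these counts are no result about the list. sox10, the transcription factor of the neural crest, was 3969.6, 1992 and 3067 in double mutants, against 1494, 1314 and 1509 in the younger wildtype (log2 difference 1.01, adjusted p = 0.026 by limma), and was 298 ± 24.7 in wildtype at 2 dpf. It was not called without double mutant replicates 1 or 3 or wildtype replicates 1 or 2, where its difference ran from 0.78 to 1.04. ltk, a receptor kinase gene of iridophores, was 1029, 1259.7 and 1542 in double mutants, against 577, 482 and 642 in the younger wildtype (log2 difference 1.16), and tfap2a, a transcription factor gene of neural crest and skin, was 1748, 1527 and 1425 in double mutants, against 365, 574 and 570.0 in the younger wildtype (log2 difference 1.66). Both stayed called in each leave-one-out fit. tfec, a factor of pigment progenitors that myeloid cells also express, was lower with all libraries (log2 difference -0.89), but of the leave-one-out fits was called only in that without wildtype replicate 3. The other lower gene, pts, was picked out after its values were seen (log2 difference -1.22). Neither was called without double mutant replicates 1 or 2 or wildtype replicates 1 or 2, nor pts without wildtype replicate 3. The list summed to 0.1477 to 0.188% of normalised counts in double mutants against 0.1337 to 0.1485% in wildtype at 1.5 dpf, and those ranges overlap. In wildtype at 2 dpf it summed to 0.0714 to 0.0818%. None of 15 purine synthesis genes, whose products pigment cells use, was called, against 14.2% of all genes (median -0.14, and 0.89 for double mutants minus wildtype at 2 dpf).

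By size, the falls among genes not named after a clone were led by eef1a1b, of the translation elongation factor 1A family. It was 1.96, 1.7 and 3.18 in double mutants, against 495, 297 and 1242 in the younger wildtype (log2 difference -7.46, SE 0.73, adjusted p = 1.8e-05 by limma). Its relative eef1a1a was 15.2, 60.6 and 15.9 in double mutants, against 678, 458 and 2697 in the younger wildtype (log2 difference -5.20). Both were higher in wildtype replicate 3 than in replicates 1 and 2, and both are similar in sequence to other family members that may share reads. In wildtype at 2 dpf they were 220.2 ± 59.5 and 304 ± 237. Another large fall was an ACTG2 family gene, from 166 ± 134 to 0.352 ± 0.307. her1, a somite clock gene, was 22.5, 6.23 and 36 in double mutants, against 393, 936 and 569 in the younger wildtype (log2 difference -5.01), and tbx6l, a gene of the presomitic mesoderm, was 9.8, 11.9 and 29.1 in double mutants, against 444, 394 and 442 in the younger wildtype (log2 difference -4.73). cst14b.2 and pdia2, a cystatin and a protein disulfide isomerase gene, averaged 36.9 ± 5.5 and 168 ± 39.7 against 1273 ± 489.8 and 4893 ± 2889.8. ccl34a.3, a chemokine gene, hbz, tubb1, the platelet and red cell tubulin, and hbbe1.2 completed the 15 largest falls with those named above, with log2 differences of -5.08, -4.84, -4.62 and -4.63.

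The rises, again among genes not named after a clone, were led by genes that were near 0 in wildtype at 1.5 dpf. scn4ab, a sodium channel gene of muscle, was 232, 311 and 265 in double mutants, against 0, 7.81 and 2.84 in the younger wildtype (log2 difference 6.38, SE 0.85, adjusted p = 0.00022 by limma), and 30.2 ± 23.7 in wildtype at 2 dpf. cilp2, a cartilage matrix gene, was at 0 in all 3 wildtype libraries and 38.2, 111 and 30.7 in double mutants. Against a floor of 3 reads per library (mean 3.54 normalised counts) it was at least 16.9-fold higher. dbh, the enzyme gene of noradrenaline synthesis, was 124, 15.3 and 203 in double mutants, against 0, 1.3 and 0 in the younger wildtype, and was not called without double mutant replicates 1 or 3 or wildtype replicates 1 or 3. gria2b, a glutamate receptor gene, was 156, 507 and 491 in double mutants, against 19.4, 3.91 and 8.52 in the younger wildtype (log2 difference 5.11, adjusted p = 0.0002 by limma). The largest rises and falls were chosen among genes without overlap and without a clone name, so their lack of overlap is no further result. Fitted differences of genes near 0 depend on the pseudocount. rhbg, an ammonium transporter gene, was 67.6, 62.9 and 108 in double mutants, against 0, 0 and 6.63 in the younger wildtype, and npb, a neuropeptide gene, 247, 122 and 242 in double mutants, against 14.2, 0 and 14.2 in the younger wildtype. matn3a, ncanb, nxph1, KCNA3, slc6a2, pou4f2, porcn and atp1a1a.5 completed the 15 largest with caspb, with log2 differences between 5.04 and 5.69. atp1a1a.5 rested on double mutant replicates 1 and 2 (146 and 271) more than on replicate 3 (5.83), and was not called without double mutant replicates 1 or 2 or wildtype replicates 1 or 2.

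By p rather than size, dnase1l4.2, entpd2a.1, rap1gap2a and susd1 were lower. dnase1l4.2, a DNase gene, was 50, 58.9 and 67.3 in double mutants, against 843, 1104 and 733 in the younger wildtype (log2 difference -3.89, SE 0.25, adjusted p = 3.1e-07 by limma). entpd2a.1, an ectonucleotidase gene, was 270.5, 216 and 324 in double mutants, against 3058, 4157 and 2484 in the younger wildtype, and rap1gap2a, a regulator of the small GTPase Rap1, was 30.4, 30 and 45.5 in double mutants, against 476, 487 and 438 in the younger wildtype. A gene of the lysyl oxidase family, listed as a LOX copy, was higher at 343, 127 and 146 in double mutants, against 6.47, 5.21 and 7.57 in the younger wildtype (log2 difference 4.66). susd1, a sushi domain gene, differed by -3.44. These genes were chosen by their small p, so a wide gap relative to spread follows from that choice. By the difference in mean level, zgc:158463 was lower at 20307, 16259 and 21456 in double mutants, against 151974, 96061 and 89741 in the younger wildtype, and CABZ01074130.1 was higher at 49611, 18563 and 19866 in double mutants, against 9054, 7152 and 7369 in the younger wildtype.

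In the remaining lists with calls, the share called was near or below that of all genes (14.2%, with 7.78% higher) for lysosome genes (10.3%), Hox genes (8.89%), apoptosis genes (12.5%), Tet and DNA methylation enzymes (10%) and proteasome subunits (2.56%), so these counts are no result about the lists. Of 39 lysosome genes 4 were higher, namely ctsk, a cathepsin gene (3309, 1518 and 2278 in double mutants, against 566, 499.9 and 505 in the younger wildtype, log2 difference 2.11), ctsl.1 (1.64), ctsz (0.91) and atp6v0a1b (2.29), the last pair not called without double mutant replicate 3 or wildtype replicates 1 or 2. In addition, ctsz was not called without double mutant replicate 1 or wildtype replicate 3, nor atp6v0a1b without double mutant replicate 2. The count was 2 without double mutant replicate 3 or wildtype replicates 1 or 2. Of 24 p53 and target genes 4 were lower and 2 higher (25% called), with plk2b at -1.76 and sesn3 at 1.22. The lower count was 2 without double mutant replicate 2 or wildtype replicate 2 and 1 without double mutant replicate 3 or wildtype replicate 1. Of 24 apoptosis genes 3 were called, among them bcl2l11 (higher) and casp3b (lower), of which bcl2l11 was not called without double mutant replicates 2 or 3 or wildtype replicate 2, and casp3b without wildtype replicate 1. Of 20 Tet and DNA methylation enzymes dnmt3bb.1 was higher (0.83) and dnmt3bb.2 lower (-0.85), and neither stayed called in each leave-one-out fit. Of 45 Hox genes 4 were higher, hoxb5b, hoxc8a, hoxb9a and hoxb10a, none of them in each leave-one-out fit, where the count was 1 to 3. Of 39 proteasome subunits 1 was higher, psme1, of 6 lymphoid and mast cell markers 1, cd79a, and of 4 lens, yolk and liver markers rbp4 was higher and tfa lower. psme1 was not called without double mutant replicates 2 or 3 or wildtype replicates 1 or 2, cd79a without double mutant replicates 2 or 3 or wildtype replicates 1 or 3, and tfa without double mutant replicate 1 or wildtype replicates 1 or 2.

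Several large groups had no called member, against 14.2% of all genes. They were 77 cytosolic ribosomal proteins (median -0.01), 65 respiratory chain genes (-0.03), 41 secretory pathway genes (-0.06), 33 glycolysis genes (0.14) and 15 mRNA methylation factors (-0.06). A gene that misses the threshold is not shown to be equal in both groups. In the leave-one-out fits at most 2 members of any of these lists were called in 1 direction.

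**Figure D5:**
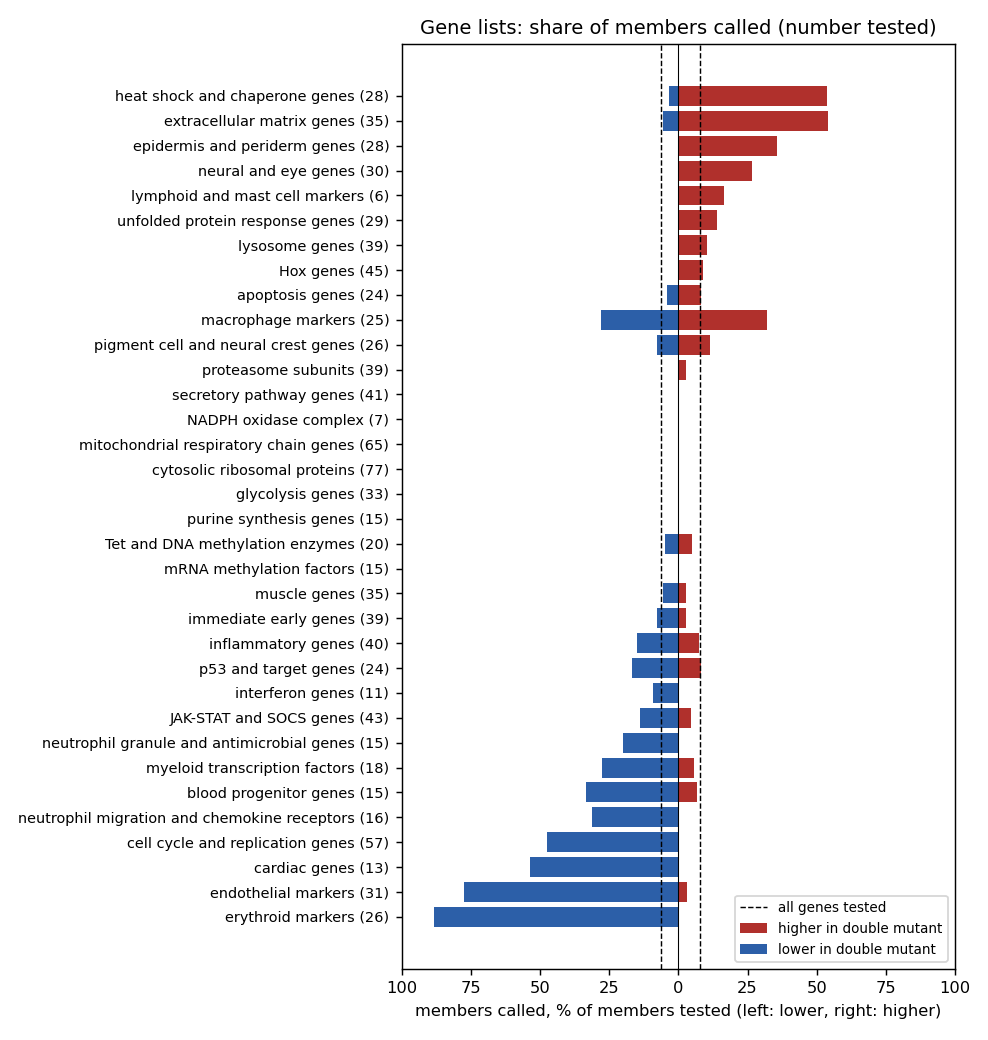
Members called higher (red, right) and lower (blue, left) in double mutants, as a percentage of the members tested, for the 34 lists with at least 5 members tested. Dashed lines mark the 7.78 and 6.39% of all genes called higher and lower. Erythroid and endothelial markers reach furthest to the left, and matrix and heat shock genes furthest to the right.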

How the data were processed

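RNA of sorted mpx:GFP-positive cells was sequenced in 15 libraries of 5 groups with 3 each. Per gene the deposited values are a signal, the read count scaled by the authors with 1 size factor per library. TopHat, Cufflinks and DESeq2 are named, without versions or roles, per the submitters' processing notes. For the genome build and annotation, nothing is stated in the labels or file header. Whole reads were recovered from the steps between low values, and 100% of values were whole within 0.01. Libraries are of a kit that does not mark strand, per the labels' protocols, so reads of overlapping or antisense genes may be shared. Depth ran from 5.64 to 31.06 M reads over the 15 libraries.

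Signal values were tested as log2(value + 1) with limma 3.58.1 in R 4.3.3 (trend and robust moderation, 5 group means, two-sided, Benjamini-Hochberg adjustment over all genes tested), for genes of at least 10 in at least 3 libraries. The spread is thus shared by all groups, although the median SD per gene ran from 0.225 to 0.417. No 2 libraries agreed within sampling noise. The count test of edgeR 4.0.16 on the recovered reads called 2297 genes, and DESeq2 1.42.0 on the same reads called 3183. IDs were matched to symbols in the deposited table, and 1014 of 1153 list entries were found.

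The comparison and the 35 gene lists were chosen with earlier results of these data known. Genes named are the tet genes, socs3b, mpx, lyz and hsp70l, the 15 largest rises and falls without overlap and with a mean of at least 50, up to 4 called members per list by p, the 10 smallest p and the 10 largest differences in mean level. Genes with a clone name in place of a symbol were left out of the largest rises, the largest falls and the smallest p. Others were named after their values were seen, where a list had few called members or beside a figure. Alternatives were another pseudocount, filter, scaling, tool, set of libraries, replicate block and covariate, and each of the 6 libraries left out in turn.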

Additional observations from a re-analysis of the deposited data

How the results depend on the processing

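Of the 2258 calls (1240 higher and 1018 lower), the count moved by more than 1.5 times under these settings. It was 1150 (646 and 504) when only the 6 libraries were fitted, 1057 (423 and 634) with the level of hsp70l as a covariate and 179 (74 and 105) for a change beyond 2-fold. With library weights, whose estimation did not converge, it was 8118 (4362 and 3756). Leaving out 1 library gave 1144 to 2522 calls, 604 to 1451 higher and 540 to 1089 lower. Without double mutant replicate 3 the higher count was 764. Without double mutant replicate 2 and wildtype replicate 3 together, a setting chosen after seeing the data, 1483 genes were called, 783 of them higher. Deviations of same-numbered libraries correlated at 0.139, -0.22 and -0.008, within the -0.321 to 0.347 of other pairs. With 3 libraries per group this cannot tell whether the numbers pair the samples, and the main fit used no pairing. With the replicate block 2041 genes were called over 15 libraries and 914 (523 and 391) over 6, and not every library correlated best with its own number. Other pseudocounts, filters, TMM scaling and thinning to 12.19 M reads gave 2209 to 2292 calls, and DESeq2 gave 3183. Quantile normalization gave 1832 and turned the balance, with 881 higher and 951 lower. Scaling without heat shock genes gave 2169, 1380 higher and 789 lower, and moved the median log2 difference of all genes from 0.03 to 0.12. Among the named genes 4 values turned in sign, each of an uncalled gene. They were mpx with quantile normalization (0.006) and without wildtype replicate 2 (0.045, against -0.69 without wildtype replicate 3), and tet2 without double mutant replicate 2 (-0.17, against 0.88 without double mutant replicate 1) and with hsp70l as a covariate (-0.45). Another 337 values lost their call and 15 gained one, against 2836 whose status, called or uncalled, stayed the same. The causes were not tested. Wildtype libraries at 1.5 dpf were the shallower, with 44 to 164 genes at 0 against 21 to 33 in double mutants, which limits genes near 0.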
